A study of Mus musculus with 10 samples.

Results

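The binding of 3 transcription factors, c-JUN (JUN), SMAD3 and NFATC2, was compared across the genome of primary mouse cardiac fibroblasts treated with TGF-β. The members were the regions that carried the authors' peak mark and at least 5 reads in the TGF-β library of each antibody, which kept 103472 of the 200390 regions listed for the 3 factors. JUN kept 63981 of 72990 regions, SMAD3 kept 19923 of 58633 and NFATC2 kept 19568 of 68767. The study profiled 10 libraries by CUT&Tag, a method in which an antibody tethers a transposase to chromatin so that the DNA beside the bound protein is cut, tagged and sequenced. It asked whether hexokinase 1 (HK1) and lactylation of histone H3 at lysine 9 (H3K9lc) bear on the binding of these factors, and each antibody was used on 1 TGF-β library and on 1 library of cells given Hk1 siRNA before TGF-β (siHK1). The labels call the cells fibroblasts of the heart treated with TGF-b, with no dose or time, and strain, sex and age are not given in the labels used here. With 1 library per antibody and condition there was no replicate, so every interval below is an exact 95% interval that covers counting error only, and amplified reads without molecular identifiers are not independent molecules.

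JUN is a member of the AP-1 family, leucine-zipper proteins that pair with FOS or with each other and bind the word TGANTCA, mostly at enhancers. SMAD3 is phosphorylated by the activated TGF-β receptor, enters the nucleus with SMAD4 and binds short elements that contain CAGAC. NFATC2 enters the nucleus once the calcium-dependent phosphatase calcineurin has dephosphorylated it, binds GGAAA, and is known to share composite elements with AP-1. All 3 are known for roles in fibroblast activation, the change by which a resident fibroblast becomes a contractile, matrix-producing myofibroblast.

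Sequences are shown first for the kinds of site that set the libraries apart. They are on the plus strand of GRCm38, read from the RefSeq assembly, in lower case. Capitals mark every full match of the word named for each set. Among sites with JUN alone, outside repeats and with an AP-1 word in the central 200 bp, the 3 with most JUN reads lay near Oxsr1, a stress-responsive kinase, Twsg1, a BMP modulator, and Adra1b, an adrenergic receptor. The sites held 870, 834 and 765 JUN reads, and no kept SMAD3 or NFATC2 region. The AP-1 word is in capitals.
Oxsr1, chr9:119265969-119266028: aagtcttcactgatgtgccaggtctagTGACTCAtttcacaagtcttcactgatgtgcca
Twsg1, chr17:65961744-65961803: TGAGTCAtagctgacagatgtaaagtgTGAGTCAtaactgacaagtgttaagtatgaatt
Adra1b, chr11:43919941-43920000: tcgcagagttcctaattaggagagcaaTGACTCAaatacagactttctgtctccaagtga

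Sites with all 3 factors and an AP-1 word are shown next, because they were the exception among shared sites. The site assigned to Zfp469, in an intron of another gene, held 1033 JUN, 28 SMAD3 and 32 NFATC2 reads. The site in the Itgb2 promoter, a leukocyte integrin gene, held 366, 27 and 27 reads, and the site over the start of Dapk3, a kinase gene, held 382, 35 and 27. The site in the first intron of Pmepa1, which encodes a TGF-β-induced inhibitor of SMAD signalling, held 481, 28 and 21 reads and was chosen because the gene is a TGF-β target. There the word was searched over the whole site, and it lies outside the central 200 bp of the site and of its JUN region.
Zfp469, chr8:122145116-122145175: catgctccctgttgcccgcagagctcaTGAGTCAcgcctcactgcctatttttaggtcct
Itgb2, chr10:77531596-77531655: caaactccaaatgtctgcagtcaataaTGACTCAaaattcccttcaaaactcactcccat
Dapk3, chr10:81182641-81182700: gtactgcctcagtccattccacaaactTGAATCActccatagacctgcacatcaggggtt
Pmepa1, chr2:173263774-173263833: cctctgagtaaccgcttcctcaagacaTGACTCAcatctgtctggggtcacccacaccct

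Sites with SMAD3 and NFATC2 but no JUN held a run of CA units in 30.4% of cases, and in 6.67% outside repeats. The run is in capitals, and on the plus strand of both examples it reads as TG. The Cldn14 intron site, 79.1% of it soft-masked, held 93 SMAD3 and 51 NFATC2 reads, and the site near C130026I21Rik held 47 and 51.
Cldn14, chr16:93996564-93996643: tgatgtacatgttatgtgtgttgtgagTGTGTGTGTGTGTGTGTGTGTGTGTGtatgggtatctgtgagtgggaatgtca
C130026I21Rik, chr1:85257250-85257329: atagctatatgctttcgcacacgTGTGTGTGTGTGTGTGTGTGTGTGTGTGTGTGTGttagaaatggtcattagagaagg

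Among the sites with most reads in all 3 libraries were tandem repeats, of which 1 is shown. The site assigned to Lrrc4c, 1198151 bp from that gene's start, was an AT-rich satellite with 15742 JUN, 32661 SMAD3 and 30491 NFATC2 reads.
Lrrc4c, chr2:98666720-98666839: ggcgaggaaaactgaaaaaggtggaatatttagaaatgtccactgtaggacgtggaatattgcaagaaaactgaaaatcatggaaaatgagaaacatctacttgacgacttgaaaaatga

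The libraries differed in the number of reads within their regions and in where these reads lay. Total reads per library are not among the values used here, so depth was not compared. Kept JUN regions held 4077693 reads, with a median of 37 per region over 34.2 Mb. Kept SMAD3 regions held 450326 reads and kept NFATC2 regions 463483, with a median of 7 in each and 7.18 and 7.23 Mb covered. The read minimum removed 94 marked JUN regions, 10659 SMAD3 regions and 11894 NFATC2 regions. The 20 regions with most reads held 2.37% of JUN reads, against 31.6% of SMAD3 and 34.6% of NFATC2 reads. Regions at least 50% soft-masked, or made of sequence shared with the mitochondrial genome, are called repeat-derived here. They were 6.42% of JUN regions with 6.79% of JUN reads, 36.6% of SMAD3 regions with 70.5% of the reads, and 27.7% of NFATC2 regions with 65.7% of the reads. Raw reads at such sites did not follow the difference in kept reads: the mitochondrial-like block near Col19a1 held 26521 JUN, 25680 SMAD3 and 44948 NFATC2 reads. Values are therefore given over all kept regions unless they are said to be outside repeats, that is outside repeat-derived regions, where the libraries held 3800745, 132716 and 159094 reads.

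**Figure D1:**
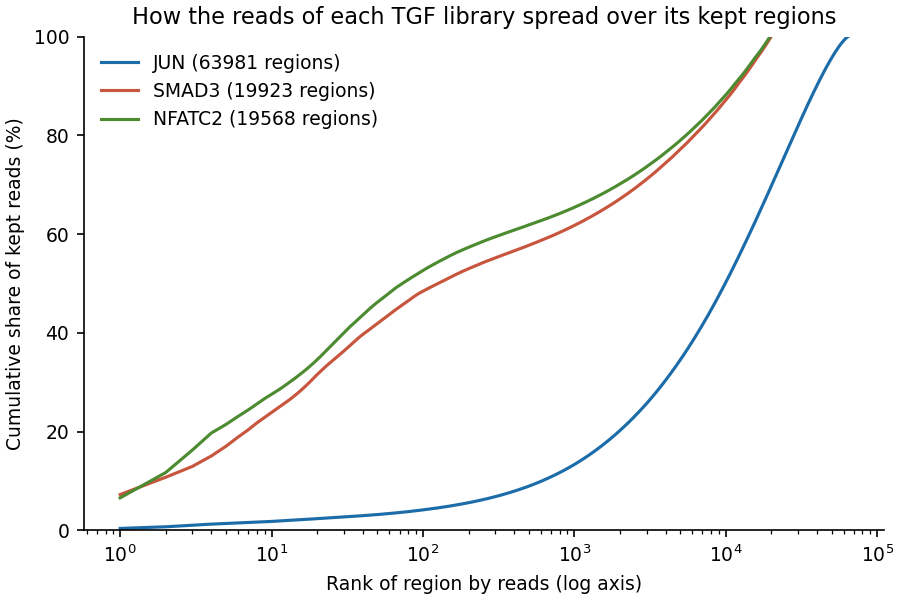
Cumulative share of kept reads (y axis, percent) against the rank of a region by its reads (x axis, log scale) in the TGF-β libraries of JUN, SMAD3 and NFATC2. The 20 regions with most reads held 31.6% of SMAD3 and 34.6% of NFATC2 reads but 2.37% of JUN reads.

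Over all kept regions JUN had the largest share at promoters, defined as within 3 kb of a start site, but not among the regions with most reads. Promoters held 25.7% of JUN regions (interval 25.4 to 26.1), 20.8% of NFATC2 regions (20.2 to 21.3) and 15.8% of SMAD3 regions (15.3 to 16.4). Distal intergenic regions ran in the opposite order, with 43.3% of SMAD3, 39.6% of NFATC2 and 32.9% of JUN regions, while introns held 36.4%, 34.5% and 35.4%. Regions that lay over a start site made up 11.7% of JUN, 6.31% of NFATC2 and 3.76% of SMAD3 regions. The order of JUN and NFATC2 depended on the regions taken. Outside repeats the promoter shares were 26.7% for JUN, 25.9% for NFATC2 (25.1 to 26.6) and 20.6% for SMAD3 (19.9 to 21.3), so that the order was the same but JUN and NFATC2 lay next to each other, while distal intergenic regions were 37.4% of SMAD3, 34.2% of NFATC2 and 32.0% of JUN regions. In the 3000 regions with most reads of each factor, repeats included, promoters held 26.7% of NFATC2 regions (25.1 to 28.3), 22.5% of JUN regions (21 to 24) and 16.6% of SMAD3 regions (15.3 to 17.9), and at a minimum of 10 reads 26.2% of NFATC2 and 25.7% of JUN regions. Weighted by reads outside repeats, promoters held 33.0% of NFATC2 reads, 25.9% of JUN reads and 24.3% of SMAD3 reads. Without Rn45s, the 45S ribosomal RNA gene that is present in many copies but not soft-masked, these were 28.9%, 25.7% and 23.0%.

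Most regions of each factor were not shared with another factor. JUN overlapped 4138 SMAD3 regions, 20.8% of them (interval 20.2 to 21.3), and 5785 NFATC2 regions, 29.6% (28.9 to 30.2). As a share of JUN regions these were 6.45% and 8.99%, since the JUN list was the longest. SMAD3 and NFATC2, with lists of like size, overlapped in 17.0% of SMAD3 and 17.4% of NFATC2 regions. Outside repeat-derived regions the overlap with JUN was 22.9% for SMAD3 and 33.2% for NFATC2, whereas that between SMAD3 and NFATC2 was 12.1% and 11%. For comparison, the siHK1 library of the same antibody overlapped 56.7% of JUN regions, 13.7% of SMAD3 regions and 10.9% of NFATC2 regions. The siHK1 lists held 44593, 15042 and 9359 kept regions, so that the lists compared differed in length as well as in antibody.

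The overlap followed the number of reads. Among the decile of SMAD3 regions with fewest reads, at 5 reads each, JUN overlapped 7.07%, NFATC2 1.81% and siHK1 SMAD3 0.903%, and among the decile with most reads the values were 60.3%, 73.1% and 61.5%. NFATC2 regions went from 11.8% to 72.6% with JUN, from 2.04% to 71.5% with SMAD3 and from 0.664% to 55.5% with siHK1 NFATC2. JUN regions overlapped NFATC2 in 4.72% of the lowest decile and 26.7% of the highest, and siHK1 JUN in 5.80% and 95.9%. Most kept SMAD3 and NFATC2 regions lay in the deciles with few reads and little overlap.

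**Figure D2:**
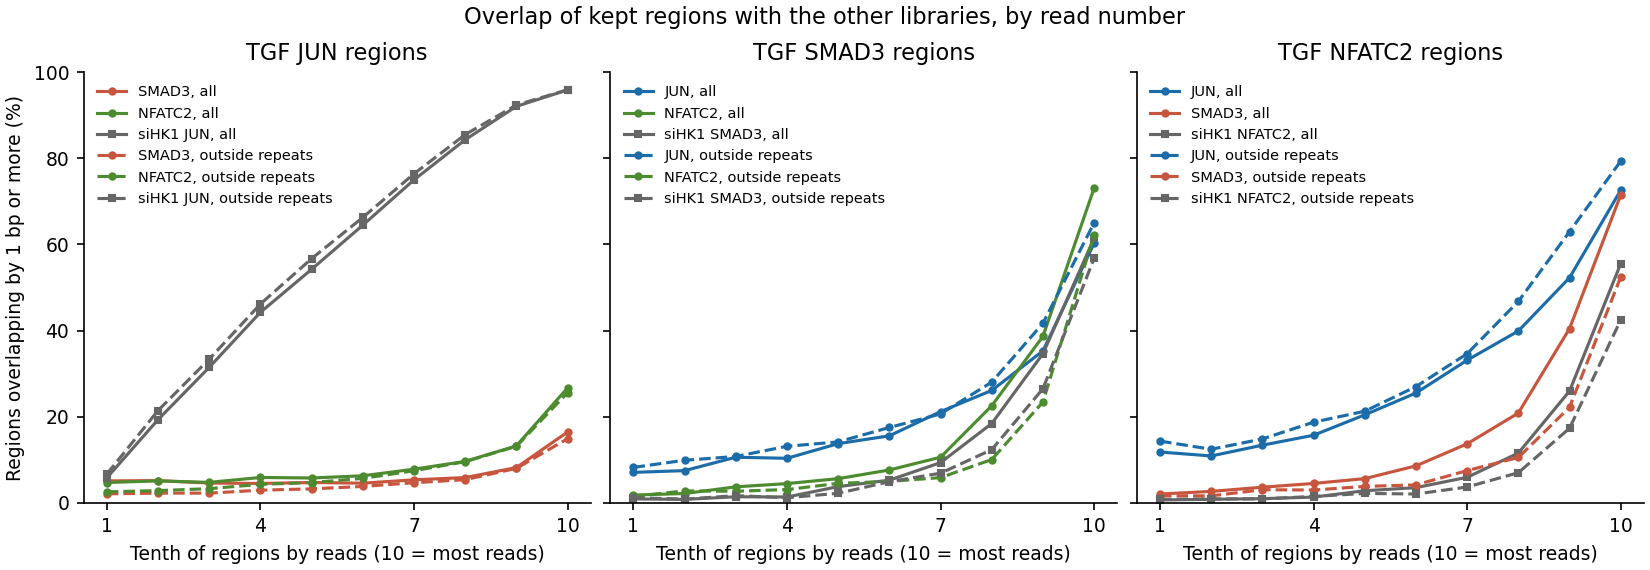
Share of kept regions that overlap a region of another library by at least 1 bp (y axis, percent) by decile of regions ordered by reads (x axis), for TGF-β JUN, SMAD3 and NFATC2; solid lines are all kept regions, broken lines those outside repeats, and grey squares the siHK1 library of the same antibody. The overlap of SMAD3 with NFATC2 rose from 1.81% to 73.1%, and that of NFATC2 with JUN from 11.8% to 72.6%.

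In lists of equal length the order of the pairs turned. Among the 3000 regions with most reads of each factor, SMAD3 and NFATC2 shared 1444 SMAD3 regions, 48.1% (interval 46.3 to 49.9), against 9.77% of SMAD3 and 16.5% of NFATC2 regions shared with JUN. Outside repeats SMAD3 and NFATC2 still shared 29.3%, against 12.6% and 20% with JUN. The siHK1 library of the same antibody, also taken to its 3000 regions with most reads, shared 80.4% of JUN, 41.4% of SMAD3 (39.6 to 43.2) and 42.7% of NFATC2 regions (41.0 to 44.5), and outside repeats 80%, 29.5% and 26.9%. At equal length NFATC2 regions therefore overlapped siHK1 NFATC2 more often than JUN of the same cells, in contrast to the full lists. The last region in these lists had 204 JUN, 16 SMAD3 and 14 NFATC2 reads, and outside repeats 200, 9 and 11. Most of the 3000 strongest JUN regions were therefore not among the strongest of either other factor.

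Merging overlapping regions gave 91965 sites. JUN alone held 56073, SMAD3 alone 14286 and NFATC2 alone 12282. JUN and SMAD3 shared 2133, JUN and NFATC2 3751, SMAD3 and NFATC2 1472, and all 3 factors 1968. Sites shared with JUN were rich in promoters: 34.6% of JUN and SMAD3 sites, 43.1% of JUN and NFATC2 sites and 31.6% of sites with all 3 were at promoters, against 24.1% of sites with JUN alone. The SMAD3 and NFATC2 sites without JUN stood apart, with 8.76% at promoters and 74.5% repeat-derived. Outside repeats 1140 sites held all 3 factors, of which 46.8% were at promoters, and only 375 held SMAD3 and NFATC2 without JUN. These 1140 sites held a median of 109 JUN reads, compared with 36 at sites with JUN alone, along with 15 SMAD3 and 16 NFATC2 reads. They were also wider, with a median of 905 bp against 459 bp, and per kb of site the medians were 121 and 77.9 JUN reads. Seen from the promoter side, 58.3% of NFATC2 promoter regions outside repeats overlapped JUN (56.6 to 59.9), against 26.3% of intron and 22.7% of distal intergenic regions. For SMAD3 the values were 46.8%, 18.2% and 15.1%.

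**Figure D3:**
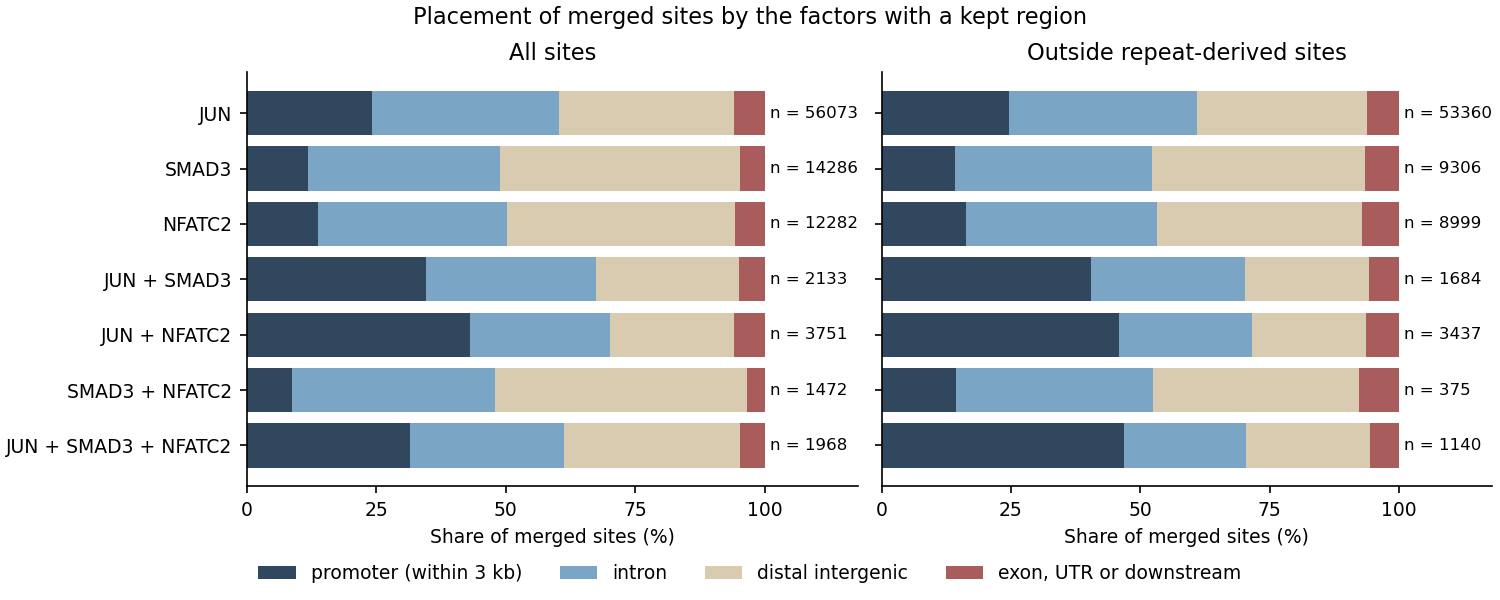
Placement of merged sites (x axis, share of sites in percent) by the factors with a kept region there (y axis, with the number of sites), over all sites and outside repeat-derived sites. Outside repeats 46.8% of the 1140 sites with all 3 factors were at promoters, against 24.7% of sites with JUN alone, 14.2% with SMAD3 alone and 16.3% with NFATC2 alone.

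Within the sites of all 3 factors, SMAD3 and NFATC2 reads went together, whereas JUN reads went with them in repeats only. Over the 1968 sites the rank correlation was 0.77 between SMAD3 and NFATC2, and -0.003 and 0.13 between JUN and each. Outside repeats, over 1140 sites, it was 0.67, -0.03 and 0.03, and at the 828 repeat-derived sites 0.85, 0.60 and 0.61. These are descriptions over sites, which share libraries, width and base composition. The median site held 0.90 times as many SMAD3 as NFATC2 reads and 7.17 times as many JUN as SMAD3 reads outside repeats. H3K9lc of the TGF-β library overlapped 47.6% of sites with all 3 factors (35.0% outside repeats), against 2.97% of sites with JUN alone (2.64% outside repeats). This was not particular to sites with JUN, since SMAD3 and NFATC2 sites without JUN overlapped it in 30% of cases and in 36.5% of the 375 outside repeats. Of the other classes outside repeats, it overlapped 8.99% of JUN and NFATC2 sites and 8.19% of JUN and SMAD3 sites. It also overlapped 4.03% of sites with SMAD3 alone and 3.56% with NFATC2 alone. The overlap rose with reads outside repeats, from the lowest to the highest decile of regions. It went from 2.37% to 43.6% in SMAD3, from 1.91% to 39.9% in NFATC2 and from 2.25% to 9.37% in JUN.

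By the largest minimum share of reads, the leading sites of all 3 factors were repeats. The mitochondrial-like block near Col19a1 at chr1:24613205-24616138 held 26521 JUN, 25680 SMAD3 and 44948 NFATC2 reads. The Rn45s site at chr17:39842997-39848758 held 8183, 2280 and 9222. A site in a Chl1 intron held 1756, 3418 and 3017 reads and shared 50% of its 16-base words with the Lrrc4c satellite, although it was only 31.1% soft-masked. At promoters outside repeats, the leading sites included those near Pdlim7, an actin-associated LIM protein gene (802, 42 and 55 reads), Eif3b, a translation initiation factor gene (350, 42 and 41), and Ell, an elongation factor gene (408, 44 and 37). Unmasked tandem copies remained among them: 17.9% of the 1140 sites had fewer than 70% distinct 16-base words, against 0.626% of sites with JUN alone, and Eif3b was of this kind with 130 distinct words in 950 bases. The other 936 sites had 54.4% at promoters and medians of 130 JUN, 14 SMAD3 and 15 NFATC2 reads.

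Of the words searched on both strands in the central 200 bp, AP-1 (TGANTCA) set JUN apart. It was in 30.8% of JUN regions (interval 30.5 to 31.2) but in 6.01% of windows 5 kb to either side. In SMAD3 regions it was in 5.33%, against 5.89% of flanks, and in NFATC2 regions in 7.17%, against 5.71%. Outside repeats it was in 31.3% of JUN, 7.15% of SMAD3 and 8.71% of NFATC2 regions, against 6.02%, 6.03% and 5.87% of flanks. Within JUN regions it rose with reads, from 14.0% of the lowest decile to 40.7% of the highest. It was more often in JUN regions free of the other factors: outside repeats and away from promoters 36.9% of sites with JUN alone held it, compared with 28.6% of JUN and SMAD3 sites, 31.5% of JUN and NFATC2 sites and 17.5% of sites with all 3. At promoters the values were 19.4%, 12%, 12.5% and 8.99%.

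The words of the other factors marked their own regions little or not at all. CAGAC, the SMAD word, was in 35.7% of SMAD3 regions and 35.5% of their flanks, and in 45.3% of JUN regions against 37.2% of theirs. Outside repeats it was in 37.7% of SMAD3 regions (36.9 to 38.6) against 36.0% of flanks, an excess beyond counting error but smaller than that of JUN regions, at 45.7% against 37.2%. GGAAA, the NFAT word, was in 37.2% of NFATC2 regions, below the 48.2% of their flanks, and outside repeats in 43.7% against 47.6%. Such short words occur often by base composition alone and their absence or presence in a window says nothing about a factor. A run of at least 6 CA units, a word added after the data were seen, was in 15.3% of SMAD3 regions (3.23% of flanks) and 11.5% of NFATC2 regions (3.44%), but in 4.31% of JUN regions (3.73%). Outside repeats it was in 5.59% of SMAD3 (3.12% of flanks) and 4.34% of NFATC2 regions (3.49%), and in JUN regions it fell below their flanks, at 2.70% against 3.72%. GGGCGG, a word that SP and KLF factors are known to bind, was in 10.3% of JUN, 6.84% of NFATC2 and 4.16% of SMAD3 regions, against 2.95%, 2.86% and 2.61% of flanks. Outside repeats it was in 10.9%, 8.95% and 5.94%, in the same order. The TEAD word GGAATG was in 14.5% of JUN regions against 10.7% of flanks, but in 8.88% of SMAD3 regions against 10.7% and 10.1% of NFATC2 regions against 10.5%. The RUNX word TGTGGT was in 16.5% of JUN regions against 15.2%, 18.6% of SMAD3 regions against 14.9% and 17.2% of NFATC2 regions against 14.8%, and outside repeats in 16%, 16.6% and 15.5% of regions against 15.2%, 15.1% and 15%. CCAAT was below flanks in each, at 22.1%, 21.1% and 22.3% against 25.3%, 27.0% and 26.6%. The cyclic AMP response element TGACGTCA was in 0.674% of JUN, 0.176% of SMAD3 and 0.271% of NFATC2 regions, against 0.142%, 0.168% and 0.151%.

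**Figure D4:**
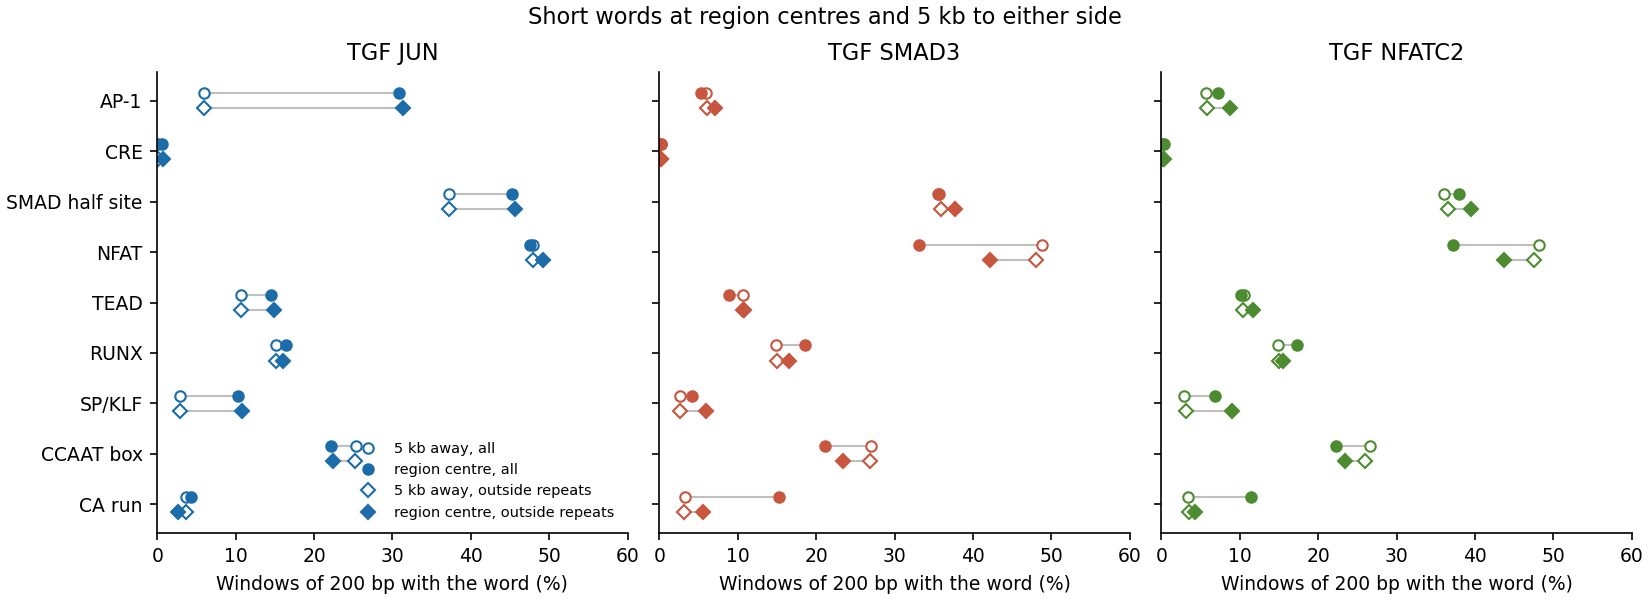
Share of 200-bp windows that hold each word (x axis, percent) at region centres (filled) and 5 kb to either side (open), for JUN, SMAD3 and NFATC2 under TGF-β, over all kept regions (circles) and outside repeats (diamonds). AP-1 stood at 30.8% of JUN centres against 6.01% of flanks, and at 5.33% and 7.17% of SMAD3 and NFATC2 centres.

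Regions were assigned to their nearest gene by the authors, and each gene's share of a library's kept reads, in reads per 1000000 kept reads (RPM), was compared between factors. JUN had a kept region at 16089 genes, SMAD3 at 9707 and NFATC2 at 9980, and 5607 genes had all 3. The rank correlation of shares, across the 18900 genes with a kept region outside repeats in any of the 6 libraries of these antibodies, was 0.27 for JUN and SMAD3, 0.33 for JUN and NFATC2, and 0.36 for SMAD3 and NFATC2. Between the TGF-β and siHK1 libraries of 1 antibody JUN had 0.91, SMAD3 0.28 and NFATC2 0.30. Genes are not independent replicates, and shares of 5 reads weigh on these values: 5 reads were 1.32 RPM in JUN, 37.7 in SMAD3 and 31.4 in NFATC2 outside repeats.

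Over all kept regions the share of a gene (10 RPM added) was at least 4-fold higher in JUN than SMAD3 at 1925 of 5409 genes (35.6%) and at least 4-fold lower at 496 (9.17%), around a median log2 ratio of 1.32. For JUN and NFATC2 the counts were 1881 (35.7%) and 370 (7.02%) of 5272, with a median of 1.41. For SMAD3 and NFATC2 they were 126 (4%) and 67 (2.13%) of 3151, with a median of 0.19. Since repeats took up most SMAD3 and NFATC2 reads, the medians fell to 0.11, 0.14 and 0.08 outside repeats. There 1509 of 6692 genes (22.5%) were higher in JUN and 1234 (18.4%) in SMAD3, 1350 of 6757 (20%) higher in JUN and 1045 (15.5%) in NFATC2, and 1003 of 6214 (16.1%) higher in SMAD3 and 1095 (17.6%) in NFATC2. In 1280 of the 1509 and 1047 of the 1350 genes the other factor had no kept region at all. JUN had none in 368 of the 1234 and 255 of the 1045 genes. Between SMAD3 and NFATC2 the other factor had none in 878 of the 1003 and 1040 of the 1095 genes. The shares were therefore also taken from reads of all listed regions outside repeats, with or without a peak mark. Each factor's own list was used, which holds regions of its TGF-β and siHK1 libraries. The regions therefore still differed by factor, and reads outside a factor's own list were not counted. On this scale 708 of 7014 genes (10.1%) were higher in JUN and 848 (12.1%) in SMAD3, 835 of 6942 (12%) in JUN and 766 (11%) in NFATC2, and 363 of 6717 (5.40%) in SMAD3 and 263 (3.92%) in NFATC2.

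The genes that led in JUN over SMAD3 were Glis3, a zinc finger transcription factor, Gadd45g, a growth arrest gene, and Trabd2b, a WNT protease. Glis3 held 3324 JUN reads in 39 regions, no kept SMAD3 read and 12 NFATC2 reads. Gadd45g held 2666, 0 and 20, and Trabd2b 2421, 0 and 43. Listed regions without a peak mark or under the minimum held 43, 38 and 32 SMAD3 reads in all at these genes. With reads of all listed regions outside repeats, Glis3 had a JUN share 6.04 times that of SMAD3 (4.25 to 8.90), Gadd45g 5.66 times (3.88 to 8.60) and Trabd2b 5.52 times (3.73 to 8.54). These genes were chosen by their ratio of kept shares in the same libraries, and the intervals do not allow for that choice. JUN led NFATC2 most at Pvt1, a long noncoding RNA gene beside Myc, at Bmper, a BMP-binding protein gene, and at Klf6, a zinc finger factor gene. Pvt1 held 4934 JUN reads in 50 regions, 12 SMAD3 reads and no kept NFATC2 read, Bmper 3586, 49 and 0, and Klf6 3043, 7 and 0. On the same listed-region scale their JUN shares were 10.5, 8.65 and 12.5 times those of NFATC2.

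The reverse direction was led by gene clusters with near-identical copies. Zfp982, in a zinc finger gene cluster on chromosome 4, held no kept JUN read, 496 SMAD3 reads in 22 regions and 367 NFATC2 reads in 17. C130026I21Rik, on chromosome 1 beside Sp110, held 49, 679 and 546 reads, and Sp110 itself 55, 442 and 555. 1700020D14Rik held 370, 2250 and 1189, nearly all of them in repeats. Reads of such copies can be placed on the wrong member, so these values are uncertain. Between SMAD3 and NFATC2 the leading genes had few reads: Pacs1 (85 SMAD3 and 0 NFATC2 reads), Greb1 (80 and 0) and Spata1 (69 and 0) in SMAD3, and G630055G22Rik (0 and 97), Garnl3 (0 and 63) and Dusp1, a MAP kinase phosphatase gene (0 and 56), in NFATC2. Of these, Pacs1 had no kept SMAD3 read outside repeats, and Greb1 had 11. The zeros depended on the peak mark and the read minimum. Listed regions, repeats included, held 83 SMAD3 and 60 NFATC2 reads at Greb1, 35 and 67 at Garnl3 and 32 and 72 at Dusp1, and 71 SMAD3 reads at G630055G22Rik. From all listed regions outside repeats, the SMAD3 share was 0.575 times that of NFATC2 at Garnl3 (0.370 to 0.878) and 0.525 times at Dusp1 (0.333 to 0.813). The share was 0.33 times at G630055G22Rik (0.12 to 0.794), where 7 SMAD3 and 23 NFATC2 reads remained. The SMAD3 share was 5.06 times that of NFATC2 at Greb1 (1.41 to 27.4), from 14 and 3 reads, and 15 times at Spata1, from 69 and 5 reads (6.11 to 47.5). Here too the genes were chosen by their ratios, which the intervals do not allow for.

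The largest shares of reads were at repeats or genes with many copies in each library. Col19a1, Lrrc4c and Mir101c held 8724, 5225 and 4821 JUN RPM, 78110, 86966 and 114919 SMAD3 RPM, and 131379, 78199 and 96457 NFATC2 RPM. Gm5458, Pisd-ps2, Rn45s, 9230019H11Rik, Sfi1 and, for JUN, Pvt1 were among the rest. Most Sfi1 reads were outside repeats by the rule used here, at 1484 of 1779 JUN, 4004 of 5261 SMAD3 and 4147 of 4449 NFATC2 reads. Rn45s, with 8183 JUN, 2291 SMAD3 and 9230 NFATC2 reads, also counts as outside repeats. The JUN reads of Pvt1 were spread over 50 regions.

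Genes of fibroblast activation were next compared by role, in 9 lists, with shares outside repeats. The totals behind these shares still held multi-copy sites, such as the Rn45s site with 8183 JUN, 2280 SMAD3 and 9222 NFATC2 reads. Shares without them were not computed, so small gaps between JUN and NFATC2 are uncertain. The reads given below for single genes are over all kept regions, and genes with most reads of a factor in repeats are named as such. Each list took a larger share of JUN reads than of SMAD3 reads. Of 79 members compared, 30 were at least 4-fold higher in JUN than SMAD3 (background 22.5%) and none was higher in SMAD3 (18.4%). Against NFATC2, 22 of 85 were higher in JUN (20%) and 2 in NFATC2 (15.5%). Between SMAD3 and NFATC2, 7 of 68 were higher in SMAD3 (16.1%) and 12 in NFATC2 (17.6%). Over all kept regions, 47 of 77 were higher in JUN than SMAD3 (background 35.6%) and 39 of 77 higher in JUN than NFATC2 (35.7%). With reads of all listed regions outside repeats, 15 of 84 were past 4-fold for JUN over SMAD3 (background 10.1%) and 17 of 84 for JUN over NFATC2 (12%), and the median of each of the 9 lists was above that of all genes for JUN over SMAD3 and for JUN over NFATC2. In kept regions this held for 7 of the 9 lists for both pairs, over all regions and outside repeats.

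Among matrix genes, the fibrillar collagens and their cross-linking enzymes held 2616 JUN RPM (2565 to 2668), 980 SMAD3 RPM (818 to 1163) and 1094 NFATC2 RPM (937 to 1269). Col5a1, a fibril-nucleating collagen, held 2350 JUN, 33 SMAD3 and 51 NFATC2 reads, and Loxl1, a cross-linking oxidase, 990, 16 and 38. For matricellular genes the shares were 3423, 1439 and 1729 RPM. Fbln2, a matrix fibulin, held 2065, 66 and 92 reads, that is 543, 497 and 578 RPM outside repeats, so that its shares were close in the 3 libraries. Its strongest SMAD3 and NFATC2 regions, with 45 and 50 reads, lay over each other at chr6:91197823-91198729 and chr6:91197773-91198704, upstream of the start, and both overlapped a kept JUN region. Thbs2, a thrombospondin, held 1636, 27 and 29 reads, and Ccn4, a WNT-induced matricellular protein, 1561, 37 and 32. Contractile genes held 2320, 964 and 1527 RPM. With all listed regions these were 2315, 1311 and 1313, and the ratio of SMAD3 to NFATC2 went from 0.631 to 0.998 (0.848 to 1.17). In this list Myh9, nonmuscle myosin, held 1940, 28 and 57 reads (1.09 times the SMAD3 share with all listed regions, 0.891 to 1.34), Actn1, an actin crosslinker, 1861, 5 and 33, and Vcl, vinculin, 782, 35 and 58. Against NFATC2, Vcl ran opposite to its list, at 206 JUN, 264 SMAD3 and 365 NFATC2 RPM, with a JUN share 0.564 times that of NFATC2 (0.432 to 0.75) and 0.696 times with reads of all listed regions (0.544 to 0.904). Against SMAD3 the direction at Vcl was not held, at 0.780 times (0.556 to 1.13) and 1.14 times (0.824 to 1.61).

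In the TGF-β pathway, whose ligands, carriers, receptors and SMADs held 2487, 1288 and 1043 RPM, Smad3 itself held 2631 JUN, 74 SMAD3 and 95 NFATC2 reads. Ltbp1, which stores latent TGF-β in matrix, held 2482, 35 and 0, and Tgfbr3, the co-receptor betaglycan, 1403, 47 and 41. The feedback genes and early targets were the list with shares nearest each other, at 2834, 1944 and 2678 RPM. One site assigned to Bambi, 130948 bp from its start, held 49 of the 258 SMAD3 and 100 of the 426 NFATC2 reads. Shares without that site were not computed. The JUN share was 1.46 times that of SMAD3 (1.29 to 1.66) and 1.06 times that of NFATC2 (0.961 to 1.17), an interval that includes equal shares. With reads of all listed regions it was 1.27 times that of NFATC2 (1.16 to 1.39). Pmepa1 held 2469, 102 and 67 reads and Smad6, an inhibitory SMAD, 1078, 54 and 102. The Smad6 share was lower in JUN than in both others with reads of all listed regions, at 0.664 times that of SMAD3 (0.536 to 0.831) and 0.561 times that of NFATC2 (0.464 to 0.684). Smurf2, a ubiquitin ligase of the pathway, held 541, 151 and 178, of which all SMAD3 and NFATC2 reads were in repeats.

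The factors' own families differed. AP-1 family genes held 1492 JUN, 482 SMAD3 and 1213 NFATC2 RPM, with Jun at 1241, 6 and 17 reads, Mafk at 720, 21 and 52, and Fos at 588, 37 and 37, of which 566, 7 and 37 were outside repeats. The list's JUN share in all listed regions was 1.82 times that of SMAD3 (1.57 to 2.12), compared with 3.09 times in kept regions. Its SMAD3 share was 0.398 times that of NFATC2 in kept regions, but 0.857 times (0.702 to 1.05) in all listed regions. Outside repeats the JUN share was lower than that of NFATC2 at Mafk, at 0.580 times (0.437 to 0.784), and at Fos, at 0.640 times (0.459 to 0.919). With all listed regions these were 0.850 (0.641 to 1.15) and 0.709 (0.529 to 0.970). NFAT and calcineurin genes held 2355, 543 and 767 RPM, the widest gap between JUN and SMAD3 among the 9 lists at 4.34 times (3.44 to 5.55). Nfatc2 held 3764, 55 and 59 reads, but 3742, 15 and 18 outside repeats. Nfatc1 held 1332, 12 and 23, and Rcan1, a calcineurin inhibitor and classical NFAT target, held 1030, 7 and 18. With reads of all listed regions the JUN share was 8.55 times that of SMAD3 at Nfatc2 (5.78 to 13.2) and 7.30 times at Rcan1 (3.69 to 16.9), but 1.54 times at Jun (1.15 to 2.11). YAP targets and Hippo genes held 1553, 1145 and 918 RPM, with Tead1, a DNA-binding partner of YAP, at 1892, 11 and 32 reads, Axl, a receptor kinase, at 768, 42 and 6, and Ccn1, a matricellular YAP target, at 634, 13 and 22, with all 13 SMAD3 reads in a repeat. The median log2 ratio of JUN to SMAD3 over the 10 YAP and Hippo genes compared was -0.29, the opposite sign to that of their summed shares, but it was 0.34 with all listed regions and 1.23 over all kept regions, where 9 were compared. Cell cycle genes held the smallest shares, 461, 234 and 421 RPM.

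**Figure D5:**
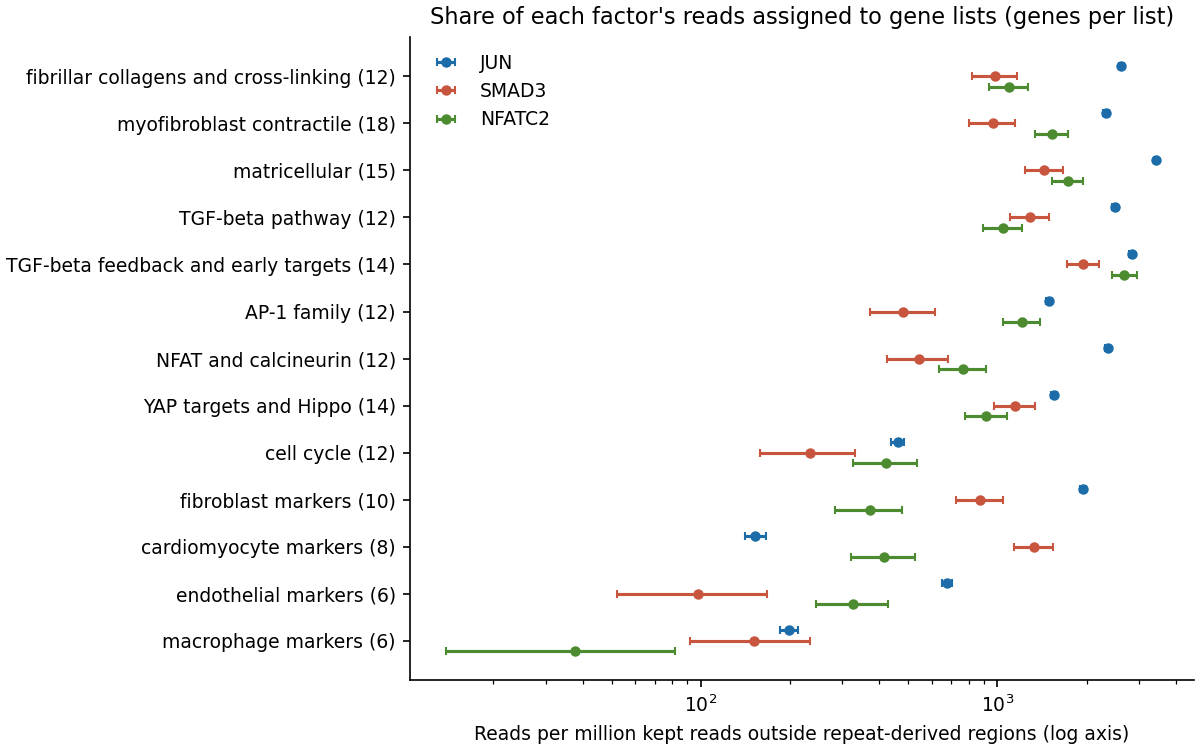
Reads per 1000000 kept reads (RPM) outside repeats (x axis, log scale) that were assigned to the genes of each list (y axis, with the number of genes) in the TGF-β libraries of JUN, SMAD3 and NFATC2; bars are exact 95% intervals for counting error. JUN was highest in every list but the cardiomyocyte markers, on totals that include multi-copy sites such as Rn45s. In the feedback list JUN and NFATC2 lay at 2834 and 2678.

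Of the genes that the study names, 9 were taken, and at most of these kept reads were few or absent for SMAD3 and NFATC2. At Acta2, smooth muscle actin, JUN held 237 reads, SMAD3 none in kept regions and NFATC2 12, of which 6 were outside repeats, and the strongest JUN and NFATC2 regions, with 208 and 6 reads, both lay over the start, at chr19:34254681-34256006 and chr19:34255513-34255970. Postn, a matricellular protein, held 911, 0 and 0 reads, and its strongest JUN region was distal intergenic. Col1a1 held 1670, 42 and 25 reads, with a JUN region of 590 reads at -7032 bp from the start, at chr11:94927538-94929192 that also held the strongest NFATC2 region, of 16 reads. Col1a2 held 616, 0 and 20, its strongest JUN and NFATC2 regions (141 and 13 reads) lying over each other upstream of the start. Col3a1 held 1073, 5 and 0 reads, Lox, the cross-linking oxidase, 772, 0 and 0, and Smyd3, a methyltransferase, 1415, 54 and 17, with 5 of the NFATC2 reads outside repeats. Cdk1, the mitotic kinase, held 36, 14 and 10 reads, with the JUN and NFATC2 regions over its start and the SMAD3 region in a repeat. A count of 0 here means no region past the minimum: listed regions held 5 SMAD3 reads at Acta2, 2 at Postn, 15 at Col1a2 and 2 at Lox. On that scale the JUN share was 2.69 times that of SMAD3 at Acta2 (1.14 to 8.35) and 1.53 times at Col1a1 (1.18 to 2.0).

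Axin2, a WNT feedback gene, was the exception with 650 JUN, 141 SMAD3 and 373 NFATC2 reads. Nearly all SMAD3 and NFATC2 reads were in 1 site at chr11:109011646-109012183, 68025 bp from the start, where the 3 libraries held 518, 133 and 373 reads in regions that began at the same base. It was among the leading sites of all 3 factors outside repeats and overlapped H3K9lc. As shares of all kept reads the site held 127 JUN, 295 SMAD3 and 805 NFATC2 RPM. JUN had the lowest share there, as at the Lrrc4c satellite and the Rn45s site. Whether the site is bound by all 3 factors was not tested.

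Marker lists of the cells were set beside these shares. Fibroblast marker genes held 1939 JUN, 874 SMAD3 and 371 NFATC2 RPM outside repeats, with kept JUN regions at 10 of 10 genes, SMAD3 at 4 and NFATC2 at 3. In all listed regions the shares were 1918, 826 and 775, and the ratio of SMAD3 to NFATC2 went from 2.36 to 1.07 (0.865 to 1.31). Thy1 held 1621, 49 and 0 reads, although listed regions without the mark or under the minimum brought NFATC2 to 62, and Ddr2 1272, 8 and 0. Cardiomyocyte markers ran the other way, at 153, 1326 and 415 RPM, and at 154, 889 and 414 with all listed regions, with kept regions at 5, 2 and 2 of 8 genes. Outside repeats the kept SMAD3 and NFATC2 reads were at Myh6, with 84 JUN, 137 SMAD3 and 25 NFATC2 reads, and at Ryr2, the cardiac calcium release channel. At Ryr2 the JUN share was 0.290 times that of SMAD3 (0.208 to 0.416) and 0.331 times that of NFATC2 (0.239 to 0.470). Endothelial markers held 678, 98 and 327 RPM and macrophage markers 198, 151 and 38, but with all listed regions 684, 341 and 311, and 192, 139 and 141, where the intervals of the SMAD3 to NFATC2 ratio (0.787 to 1.53 and 0.587 to 1.66) included equal shares. Binding near a marker gene is not its expression, and the part of other cell types in these shares was not tested.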

How the data were processed

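CUT&Tag libraries of TGF-β-treated fibroblasts were compared for 3 antibodies, with 1 library each. The authors deposited, for each antibody, a table of regions with the read counts and a peak mark of the TGF-β and siHK1 libraries, the nearest gene and the placement. The submitters' processing notes name BWA 0.7.12 and mm10. The study's methods name other tools and a later mouse build, but 45666 of 45666 transcripts found by name had the coordinates of the GRCm38 annotation, so that build was used. Columns of the authors' own comparison (fold changes and p-values) were not used.

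Regions with a peak mark and at least 5 reads were kept. Overlap needed 1 bp. Intervals are exact Clopper-Pearson or conditional binomial intervals at 95%. A gene's share was its reads per 1000000 kept reads (RPM), with 10 RPM added for ratios, and genes with a mean share of at least 40 RPM over a pair were compared at 4-fold. No p-value was computed. Repeat-derived regions had at least 50% soft-masked bases or 50% of sampled 24-base words in the mitochondrial genome, a rule made after the data were seen. Motifs were searched in the central 200 bp and in windows 5 kb away.

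Named genes were the 8 with the largest share per factor, the 3 with the largest ratio in each direction per pair, the 3 with the largest mean share per list, and 9 of the genes that the study names. Leading shared sites outside repeats, and the printed sequences, were chosen after values were seen. The members and lists were chosen with earlier results of these data known. One TGF-β library with no antibody in its labels was not used. Scripts were tested on simulated data and used Python 3.11.15, numpy 2.4.6, pandas 2.3.3, scipy 1.17.1, pysam 0.24.0 and matplotlib 3.10.9. Some sites that met these rules are not reported here.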

Additional observations from a re-analysis of the deposited data

How the results depend on the processing

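No paired analysis was possible because each antibody and condition had 1 library, and for the same reason no library could be left out. Of 81 alternative values 27 stayed within counting error or within 1.5 times of the reported count, and 54 moved. Regions outside repeats, those without Rn45s, and reads of all listed regions, were alternatives chosen after seeing the data. Low read numbers per region weigh most on SMAD3 and NFATC2, whose median kept region held 7 reads, against 37 in JUN. Where a setting changes which regions enter, that is its construction, and beyond this the cause was not tested.

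Kept SMAD3 regions numbered 30582 with no read minimum, 6697 at 10 reads and 12637 outside repeats, and NFATC2 regions 31462 with no minimum and 6062 at 10 reads. The overlap of SMAD3 with JUN was 15.2% with no minimum, 36.9% at 10 reads, 9.77% in the 3000 regions with most reads, 22.9% outside repeats, 19.2% when 50% of the shorter region had to be covered and 18.3% by midpoint. In the same order, NFATC2 with JUN was 20.6, 53.2, 16.5, 33.2, 27.7 and 26.8%, and NFATC2 with SMAD3 was 11.7, 38.2, 48.0, 11, 15.7 and 14.8%.

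Promoter shares of JUN were 22.5% in the 3000 regions with most reads, 26.7% outside repeats, 24.5% weighted by reads and 18.5% within 1 kb. For SMAD3 they were 14.7% with no minimum, 17.5% at 10 reads, 16.6% in the 3000 regions, 20.6% outside repeats, 10.7% weighted by reads and 8.98% within 1 kb. For NFATC2 they were 18.1, 26.2, 26.7, 25.9, 14.0 and 13.4% in that order. Weighted by reads outside repeats and without Rn45s, they were 23.0% for SMAD3 and 28.9% for NFATC2.

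Against 2421, 2251 and 193 genes past 4-fold for JUN and SMAD3, JUN and NFATC2, and SMAD3 and NFATC2, adding 50 RPM gave 687, 660 and 6, and no minimum share gave 4714, 4294 and 1750. With all listed regions outside repeats, JUN and SMAD3 differed at 1556 genes and SMAD3 and NFATC2 at 626. The count for SMAD3 and NFATC2 was also 314 with 2 RPM added, 2814 within 10 kb of a start site, 555 without the 20 densest regions, 324 at 10 reads and 2098 outside repeats.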

Other observations

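The siHK1 libraries of the same antibodies were set beside the TGF-β lists of equal length. Of the 3000 TGF-β JUN regions with most reads, 26.3% (exact interval 24.8 to 27.9) overlapped the 3000 siHK1 SMAD3 regions with most reads, against 9.67% (8.63 to 10.8) for TGF-β SMAD3. Outside repeats the values were 28.4% and 12.5%. For NFATC2 they lay closer, at 14.4% with siHK1 NFATC2 and 16.4% with TGF-β NFATC2, but outside repeats the gap was wider and opposite to that of SMAD3, at 14.4% (13.1 to 15.7) and 19.8% (18.4 to 21.3). Across 18900 genes outside repeats, the rank correlation of shares was 0.45 between siHK1 JUN and siHK1 SMAD3, compared with 0.27 under TGF-β. The other pairs went the other way, with JUN and NFATC2 at 0.30 in siHK1 and 0.33 under TGF-β. SMAD3 and NFATC2 were at 0.32 and 0.36. Repeat-derived regions held 58.5% of siHK1 SMAD3 reads and 70.5% of TGF-β SMAD3 reads, and the part of this in the overlap was not tested. Each value compares 2 libraries, not conditions.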
